A study of Mus musculus with 12 samples.

Results

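The polyamine synthesis and control genes are 10 genes that make the polyamines putrescine, spermidine and spermine, break them down, or set the amount of the enzyme that starts their synthesis. They are Odc1, Amd1, Srm and Sms (synthesis), Oaz1, Oaz2 and Azin1 (control of Odc1 protein) and Sat1, Paox and Smox (breakdown and interconversion). They were chosen from a list by function, which was drawn up with earlier results of these data in view, so tests on them describe the data and are not independent evidence. All 10 were found among 56691 genes in the count table by their Ensembl identifiers, and all 10 were among the 15138 genes that reached 30 reads in sum over all 12 samples, which are the genes tested. Their levels were read across the 4 antibody groups of the study.

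The 12 mice, 3 in each group, were Tg4 Nr4a3-Tocky Il10-GFP, and the CD4+ T cells of each spleen gave 1 library of messenger RNA sequenced from the 3′ end. Tg4 mice carry a transgenic T cell receptor for a myelin basic protein peptide, Nr4a3-Tocky makes a fluorescent Timer protein when Nr4a3 is transcribed, and Il10-GFP reports the cytokine gene Il10. All groups carried these transgenes and differed in the antibody given. Every mouse received 4 mg/kg of [4Y]-MBP peptide under the skin, antibody into the peritoneum 24 h later, 0.4 mg/kg of peptide 30 min after the antibody, and was killed after a further 12 h. The isotype group received a pool of rat IgG1 and rat IgG2a, the anti-PD-L1 group 0.5 mg of that antibody, the anti-Lag3 group an antibody to Lag3, and the co-blockade (CB) group both antibodies pooled in equal parts. Mice of the study were usually 6 to 8 weeks old and of both sexes. Cells positive for both the Blue and the Red form of Timer, the responders, were sequenced, so the comparisons are between responders and not between whole spleens. Mice were sorted in batches of 4 with a different CD4 stain for each group, and the effects of stain and antibody cannot be told apart.

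Polyamines are small, positively charged amines that bind RNA and are needed by growing cells. Odc1 makes putrescine from ornithine, Amd1 turns S-adenosylmethionine into the donor of aminopropyl groups, Srm adds such a group to putrescine to give spermidine, and Sms adds a further one to give spermine. Activated T cells are known to raise polyamine synthesis, and spermidine is also the source of hypusine, a modified amino acid on the translation factor eIF5A.

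Reads on genes were between 16449370 and 22151025 per library (median 19176439), and levels are given in CPM, read counts scaled to a common library size by TMM. The study names no molecular identifiers, so reads can be copies of 1 molecule. Markers of CD4 T cells summed to between 1443 and 1855 CPM in every library, against at most 20.6 CPM for B cell, 15.6 CPM for myeloid and 4.70 CPM for NK cell markers. CD4 T cell markers summed to between 1443 and 1618 CPM in CB and between 1691 and 1855 CPM in isotype. The 5 erythroid markers summed to between 150 and 198 CPM in CB and between 241 and 449 CPM in isotype, and the 2 CD8 T cell markers to between 25.0 and 33.2 CPM and between 40.9 and 45.3 CPM. These 3 sums did not overlap between CB and isotype, and their part in the differences below was not tested. The CD4 T cell sum in CB was also below that of anti-PD-L1 (1635 to 1791 CPM) and anti-Lag3 (1718 to 1733 CPM). The erythroid sum was 170 to 217 CPM with anti-PD-L1, below isotype, and 213 to 287 CPM with anti-Lag3, above CB. The CD8 T cell sum with anti-PD-L1, 24.6 to 30.5 CPM, was below isotype as well.

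Odc1 and Amd1, the enzymes at the head of the pathway, are shown with the DNA before their starts because both were higher in CB than in isotype. The sequences are from RefSeq's promoter windows on GRCm38.p6, given 5′ to 3′ on the strand of the gene, with GC boxes (GGGCGG on either strand) in capitals.
Odc1: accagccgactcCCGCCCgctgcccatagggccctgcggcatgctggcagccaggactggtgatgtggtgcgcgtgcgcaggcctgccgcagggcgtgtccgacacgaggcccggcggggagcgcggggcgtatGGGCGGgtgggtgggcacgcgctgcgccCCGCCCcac
Amd1: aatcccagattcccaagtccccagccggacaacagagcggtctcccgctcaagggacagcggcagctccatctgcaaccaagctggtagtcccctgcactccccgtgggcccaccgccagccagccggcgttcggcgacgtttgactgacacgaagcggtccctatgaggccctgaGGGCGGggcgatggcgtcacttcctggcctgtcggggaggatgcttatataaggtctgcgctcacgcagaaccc
The Amd1 run is the 250 bases before the start, chr10:40302189-40302438 on the minus strand. The Odc1 run is chr12:17544623-17544793 on the plus strand, and the last 79 bases of its window were left out because GENCODE vM21 places first exons of other transcripts there. The Odc1 run held 3 GC boxes and the Amd1 run 1. Such a box stood in the 250 bases before the start in 8 of the 10 windows of the 8 members in the table (Sms and Paox have 2 each), and in 32.7% of all 32851 windows. The GC content of the members' windows was between 47.2 and 80.0% (median 62.8%), against a median of 52.4% over all windows. The E-box CACGTG, whose reverse complement is itself, was in 6.02% of all windows and in 1 of the 10 windows of members, that of Sms. Srm and Azin1 had no window in the table.

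Antizymes, encoded by Oaz1 and Oaz2, bind Odc1 protein and deliver it to the proteasome. Their full-length proteins are made only when ribosomes shift the reading frame by 1 base, a step that polyamines promote. The bases around that step in GENCODE vM21 transcripts, read 5′ to 3′, are shown because 3′ read counts measure the amount of these transcripts and not the frameshift. The capitals mark the codon directly before the base left out in the coding sequence of 3 Oaz1 and 2 Oaz2 transcripts. That base is at position 80828295 on chromosome 10 (Oaz1) and 65686272 on chromosome 9 (Oaz2). The annotation leaves it out of the exons too, so it is missing from the runs shown, directly after the capitals. The runs are therefore joined across that base and are not the unbroken messenger RNA.
Oaz1: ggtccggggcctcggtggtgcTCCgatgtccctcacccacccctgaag
Oaz2: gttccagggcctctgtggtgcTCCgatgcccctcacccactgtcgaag
A further transcript of each gene leaves out 4 bases there, ending at the same position. Of the 48 bases shown, 40 were equal between the genes.

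CB was compared with isotype to ask what the combination changed in responders. Of synthesis, 3 genes rose: Srm 2.37-fold, Amd1 2.00-fold and Odc1 1.65-fold. The remaining synthesis enzyme, Sms, and all 6 genes of control and breakdown did not pass the test. Thus 3 of 10 members were called (edgeR's quasi-likelihood test, adjusted p under 0.05), and 4.29% of all genes tested were called. In the upward direction 3 of 10 members and 2.33% of genes were called. The median log2 fold change of the 10 members was 0.10, and that of all genes was 0. In bulk RNA, a difference in the number of cells that express a gene and in the amount of RNA per cell cannot be told apart.

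**Figure D1:**
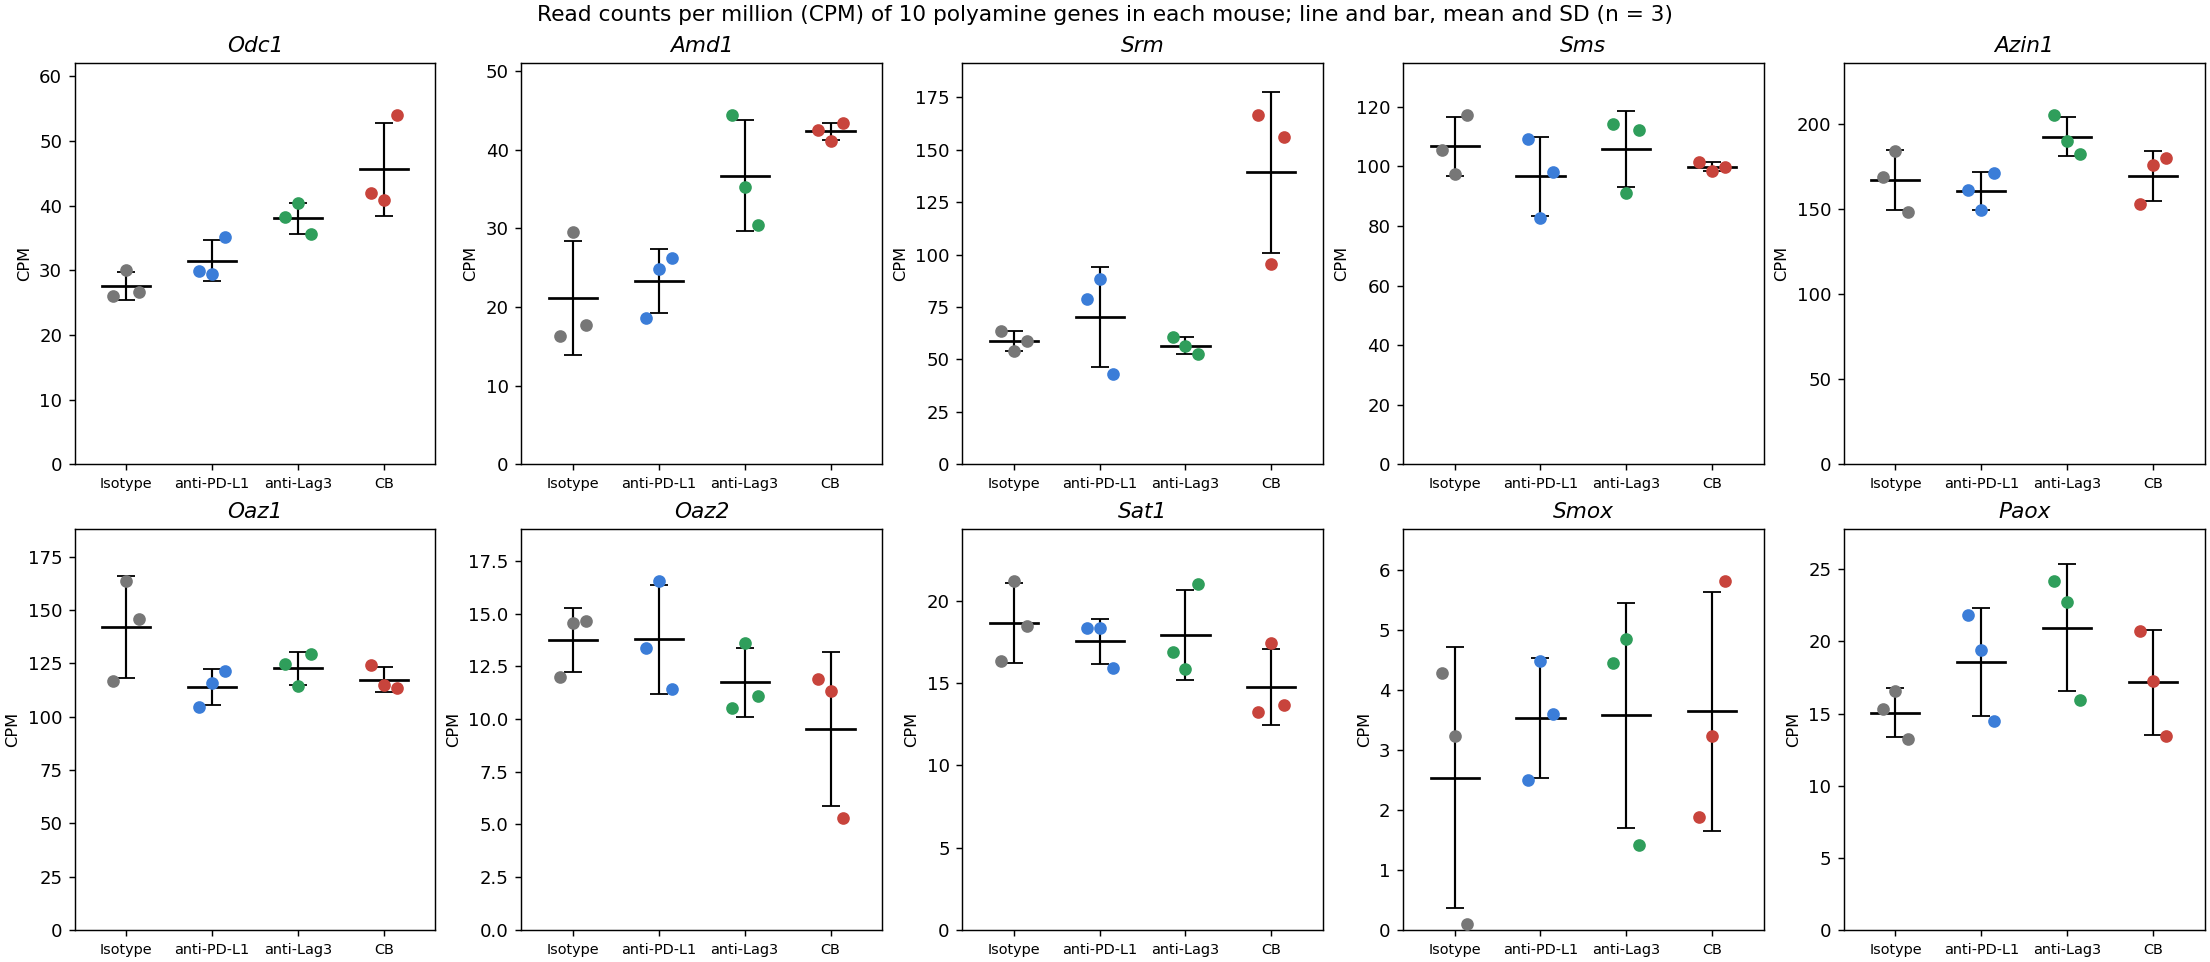
CPM (vertical axis, from 0, with its own scale in each panel) of the 10 polyamine genes in every mouse (points) of the 4 groups, with the group mean (line) and SD (bar, n = 3). All CB points of Srm, Amd1 and Odc1 lie above all isotype points, and those of Sms, Azin1 and Oaz1 overlap with isotype.

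Srm, spermidine synthase (chr4:148591503-148594993, plus strand), stood at 63.5, 54.2 and 58.7 CPM in the 3 isotype mice and at 166, 95.3 and 156 CPM in the 3 CB mice. The groups did not overlap, and the second CB mouse was well below the other 2. The means were 58.8 ± 4.62 and 139 ± 38.4 CPM (SD, n = 3), a log2 fold change of 1.24 (SE 0.20, adjusted p = 3.99e-04). Srm stayed called without any single mouse and under every other setting tried, with a log2 fold change between 1.10 and 1.46.

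Amd1 (chr10:40287458-40302186, minus strand) stood at 16.3, 29.5 and 17.7 CPM in isotype and at 42.5, 41.1 and 43.3 CPM in CB. The CB mice were close together and all above the highest isotype mouse, the second. The means were 21.2 ± 7.27 and 42.3 ± 1.11 CPM (SD, n = 3), a log2 fold change of 1.00 (SE 0.24, adjusted p = 0.0122). Without the first isotype mouse the adjusted p was 0.0861 and without the third 0.0680. Against a log2 fold change of 0.2, DESeq2 gave 0.119.

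Odc1, ornithine decarboxylase (chr12:17544794-17551505, plus strand), stood at 26.0, 30.1 and 26.6 CPM in isotype and at 41.9, 40.9 and 53.9 CPM in CB. All CB mice were above all isotype mice, with the third the highest. The means were 27.6 ± 2.20 and 45.6 ± 7.24 CPM (SD, n = 3), a log2 fold change of 0.73 (SE 0.19, adjusted p = 0.0265). The call was lost without any 1 of the 3 isotype mice (adjusted p 0.106, 0.0523 and 0.0890), without the first CB mouse or the third (0.0524 and 0.209) and in DESeq2's test against 0.2 (0.253).

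Sms, spermine synthase (chrX:157443855-157492287, minus strand), stood at 106, 97.4 and 117 CPM in isotype and at 102, 98.6 and 99.6 CPM in CB. The ranges overlapped, and the log2 fold change was -0.09 with a 95% interval from -0.37 to 0.18. That interval lies below the one for Srm, which ran from 0.83 to 1.66.

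Among the control genes, no member passed the test. Azin1, an enzymatically inactive relative of Odc1 that binds antizyme and so spares Odc1 (chr15:38487427-38519266, minus strand), stood at 169, 184 and 149 CPM in isotype and at 153, 176 and 180 CPM in CB. Its log2 fold change was 0.02, with a 95% interval from -0.21 to 0.26 (adjusted p = 0.994).

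Oaz1 (chr10:80826656-80829290, plus strand) stood at 117, 164 and 146 CPM in isotype and at 124, 115 and 113 CPM in CB. The lowest isotype mouse lay inside the CB range. The log2 fold change was -0.27 (SE 0.13), with an unadjusted p of 0.0428 in edgeR and an adjusted p of 0.315.

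Oaz2 (chr9:65668001-65690300, plus strand) stood at 12.0, 14.6 and 14.7 CPM in isotype and at 11.9, 11.3 and 5.30 CPM in CB. All CB mice were below all isotype mice, but the first mice of the groups were nearly equal and the third CB mouse, with 115 reads, carried most of the difference. On the log2 scale the fold change was -0.53 (SE 0.35, adjusted p = 0.486 in edgeR). With Oaz2, 4 of 10 members did not overlap between CB and isotype, and the same held for 20.0% of all genes tested.

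Of the breakdown genes, Sat1, which acetylates spermidine and spermine (chrX:155213132-155216449, minus strand), stood at 16.4, 21.2 and 18.5 CPM in isotype and at 13.3, 17.5 and 13.7 CPM in CB. Its ranges overlapped (log2 fold change -0.34, SE 0.27, adjusted p = 0.617 in edgeR). Paox, which oxidises the acetylated forms (chr7:140115799-140137224, plus strand), stood between 13.2 and 16.6 CPM in isotype and between 13.5 and 20.7 CPM in CB, with a log2 fold change of 0.19 (SE 0.28). The ranges overlapped there too. Smox, which oxidises spermine back to spermidine (chr2:131491496-131525922, plus strand), had 85, 51 and 2 reads in isotype and 36, 67 and 126 in CB. These counts are too few and too uneven for a fold change to be read, and its 95% interval on the log2 scale ran from -1.36 to 2.40.

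The single antibodies were compared with isotype to ask what each did alone, and these comparisons share the isotype mice. For anti-PD-L1, 0 of 10 members were called by edgeR and 0 by DESeq2, while 0.0330% of all genes were called by edgeR and 56 genes by DESeq2. At an unadjusted p under 0.05, edgeR had 1 of 10 members and 1187 of the 15138 genes tested. The member was Oaz1, with a log2 fold change of -0.32 (SE 0.13) and an adjusted p of 0.545. For anti-Lag3, edgeR called 0 of 10 members and 0% of all genes. DESeq2 called 0 of 10 members and 9 genes in all. At an unadjusted p under 0.05, edgeR had 2 of 10 members, Amd1 and Odc1, and 788 of the 15138 genes tested.

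Odc1 stood at 29.8, 29.4 and 35.1 CPM with anti-PD-L1 and at 38.2, 40.4 and 35.6 CPM with anti-Lag3. The anti-Lag3 mice were all above the isotype mice, while anti-PD-L1 overlapped with isotype. The anti-Lag3 mice were also all below the CB mice, but the highest, at 40.4 CPM, was close to the lowest CB mouse, at 40.9 CPM. The share of all genes without overlap was counted only between CB and isotype, where it was 20.0%. The log2 fold change against isotype was 0.19 (SE 0.19) for anti-PD-L1 and 0.47 (SE 0.19, adjusted p = 0.805) for anti-Lag3.

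Amd1 showed a like order of levels, with 18.6, 24.8 and 26.3 CPM for anti-PD-L1 and 44.3, 35.3 and 30.5 CPM for anti-Lag3. The anti-Lag3 mice were again above all isotype mice, and 1 of them was above all CB mice. Its log2 fold change against isotype was 0.14 (SE 0.24) for anti-PD-L1 and 0.80 (SE 0.24, adjusted p = 0.805) for anti-Lag3.

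Srm had another order, with 78.6, 88.3 and 43.1 CPM for anti-PD-L1 and 60.6, 56.6 and 52.5 CPM for anti-Lag3. The anti-PD-L1 mice were spread on both sides of isotype, and the anti-Lag3 mice lay at the level of isotype. The log2 fold change against isotype was 0.25 (SE 0.20) for anti-PD-L1 and -0.06 (SE 0.20) for anti-Lag3.

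**Figure D2:**
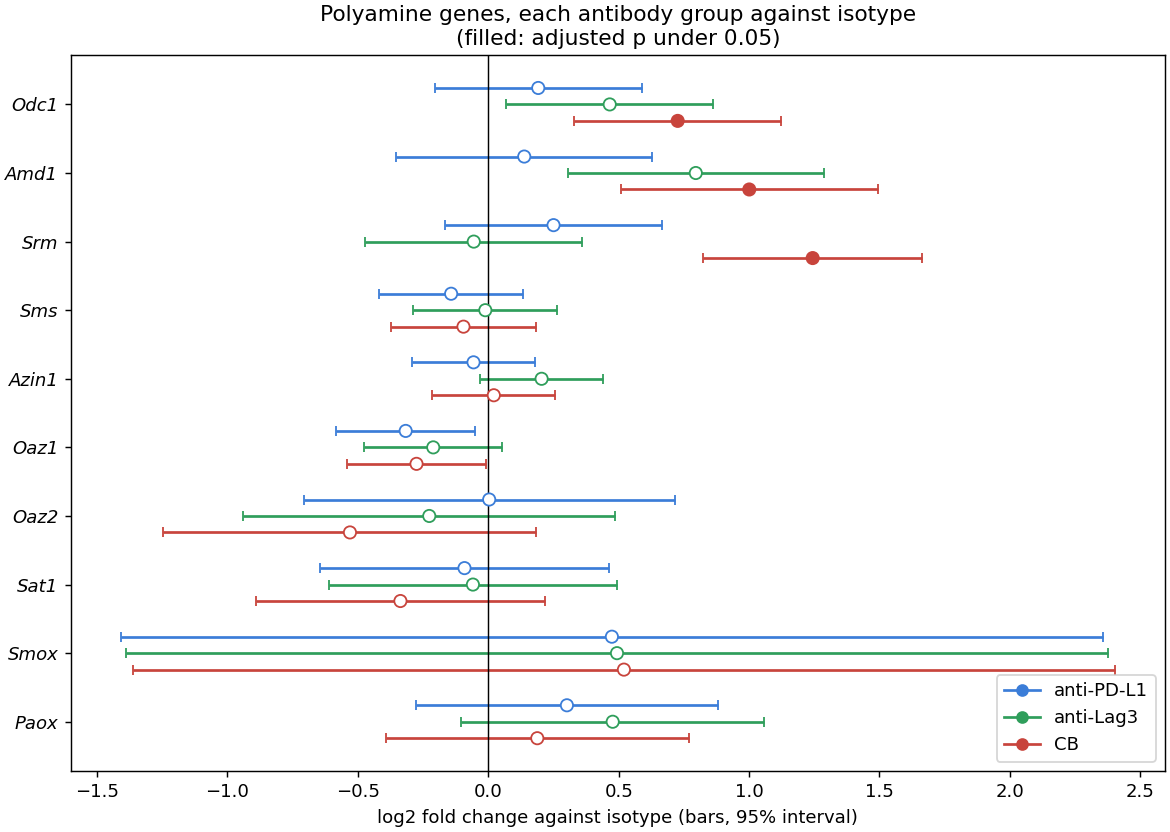
Log2 fold change against isotype (horizontal axis) of the 10 polyamine genes for anti-PD-L1, anti-Lag3 and CB, with 95% intervals as bars and filled points where the adjusted p is under 0.05. The filled points are those of Odc1, Amd1 and Srm in CB, at 0.73, 1.00 and 1.24, and the intervals of Smox are the widest shown.

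CB was then set against each single antibody, to ask what the second antibody added. Srm was the 1 of 10 members called against anti-PD-L1, where 0.370% of all genes were called, and the 1 of 10 called against anti-Lag3, where 0.694% were. Its log2 fold change was 0.99 against anti-PD-L1 (SE 0.20, adjusted p = 0.0254) and 1.30 against anti-Lag3 (SE 0.20, adjusted p = 0.00116). All 3 CB mice were above all mice of both single antibody groups. In each of these comparisons 3 of 10 members did not overlap, and the share of all genes without overlap was not counted there. The call against anti-PD-L1 was lost without the third anti-PD-L1 mouse (adjusted p 0.0799), the first CB mouse (0.147) or the third (0.136), with only these groups in the fit (0.0567) and in DESeq2's test against 0.2 (0.237). The call against anti-Lag3 held under every setting tried.

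Amd1 and Odc1 were not called in either of these comparisons. For both genes all CB mice were above all anti-PD-L1 mice, and for Odc1 also above all anti-Lag3 mice. Azin1, not called either, was lower in all CB mice than in all anti-Lag3 mice. Against anti-PD-L1, the log2 fold change of Amd1 was 0.86 (SE 0.24, adjusted p = 0.134) and that of Odc1 0.53 (SE 0.19, adjusted p = 0.334). Without a filter on low counts Amd1 passed against anti-PD-L1, with an adjusted p of 0.0329. Against anti-Lag3, Amd1 differed by 0.21 (95% interval from -0.28 to 0.69) and Odc1 by 0.26 (from -0.13 to 0.66) on the log2 scale.

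The antibodies were compared directly, and edgeR and DESeq2 each called 0 of 10 members, with 0% of all genes called by edgeR and 10 genes by DESeq2. Amd1 and Azin1 had unadjusted p values under 0.05 in edgeR, among 710 of the 15138 genes tested. Amd1 was lower with anti-PD-L1 than with anti-Lag3, by -0.66 on the log2 scale (SE 0.24, adjusted p = 0.802). Azin1 stood at 161, 150 and 171 CPM with anti-PD-L1 and at 205, 190 and 182 CPM with anti-Lag3, a difference of -0.26 (SE 0.11, adjusted p = 0.802).

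The interaction, on the log2 scale the CB mean less the mean of each single antibody group with the isotype mean added back, tests whether CB departs from the sum of the single effects. By edgeR 0 of 10 members and 0% of all genes were called, and DESeq2 called 0 members and 5 genes. At an unadjusted p under 0.05 edgeR had 1 of 10 members, Srm, and 898 of the 15138 genes tested. Srm had an interaction of 1.05 (SE 0.29, adjusted p = 0.752), against 0.07 for Odc1 (SE 0.27) and 0.07 for Amd1 (SE 0.34). Without a filter on low counts the adjusted p of Srm was 0.00552.

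Ratios of reads between members within 1 library do not depend on how libraries are scaled. They were taken for pairs linked by function, and are described without a test. A ratio between genes also reflects how each is captured at its 3′ end, so only the change of a ratio between mice is read. The reads of Srm relative to Sms were 0.601, 0.557 and 0.501 in isotype and 1.64, 0.967 and 1.57 in CB. All CB mice were above all isotype mice, though 1 anti-PD-L1 mouse, at 1.07, was above the lowest CB mouse. The mean log2 ratio was -0.86 ± 0.13 in isotype and 0.44 ± 0.42 in CB (SD, n = 3).

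The ratio of Odc1 to its inhibitor Oaz1 was 0.223, 0.184 and 0.182 in isotype and 0.338, 0.357 and 0.476 in CB. It lay between 0.254 and 0.289 with anti-PD-L1 and between 0.275 and 0.354 with anti-Lag3, so every mouse given a blocking antibody was above every isotype mouse. How often this holds for other pairs of genes was not counted. Neither gene was called with either single antibody, and with anti-PD-L1 each gene alone overlapped with isotype. The mean log2 ratio was -2.35 ± 0.17 in isotype, -1.86 ± 0.10 with anti-PD-L1, -1.69 ± 0.18 with anti-Lag3 and -1.37 ± 0.27 in CB (SD, n = 3).

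The ratio of Odc1 to Azin1 was 0.154, 0.163 and 0.179 in isotype and 0.274, 0.232 and 0.300 in CB, and all CB mice were above all mice of the other groups. The ratio of Amd1 to Sat1, an enzyme that feeds synthesis against 1 that drains it, was 0.994, 1.39 and 0.960 in isotype and 3.21, 2.36 and 3.17 in CB. There too the groups did not overlap, while 1 anti-Lag3 mouse, at 2.62, lay within the CB range.

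**Figure D3:**
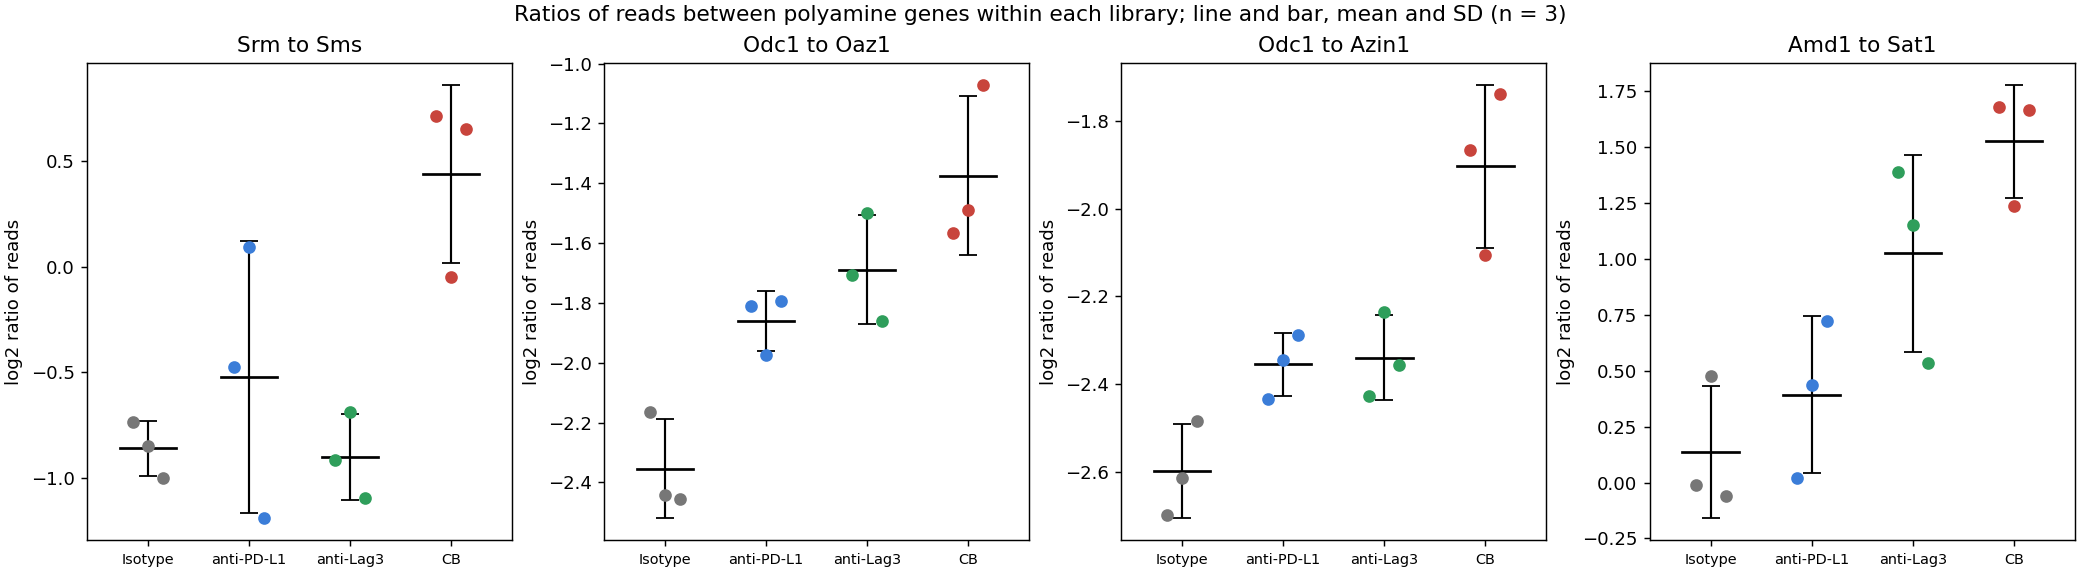
Log2 ratio of reads (vertical axis, with its own scale in each panel) between 4 pairs of polyamine genes within each library, by group, with the group mean (line) and SD (bar, n = 3). CB lies above isotype in every panel, with mean log2 differences of 1.30 (Srm to Sms), 0.98 (Odc1 to Oaz1), 0.69 (Odc1 to Azin1) and 1.39 (Amd1 to Sat1).

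Over the 12 libraries, which include the group differences, the log2 CPM of Odc1 and Amd1 had a Pearson correlation of 0.88, that of Srm and Odc1 0.55 and that of Srm and Amd1 0.43. The genes most like Srm among 7348 with a mean of at least 10 CPM were Plin2 (r = 0.93), which coats lipid droplets, Ndufab1 (0.92), the mitochondrial acyl carrier protein, Timm17a (0.90), part of an import channel of mitochondria, Smndc1 (0.90), a splicing factor, and Ptpn1 (0.90), a tyrosine phosphatase. Those most like Odc1 were Utp3 (0.93), Fcf1 (0.91), Nip7 (0.90), Ino80c (0.89) and Noc4l (0.88). Utp3, Fcf1, Nip7 and Noc4l act in ribosome assembly, and Ino80c is a subunit of a chromatin remodeller. The correlations are descriptions over mice that share the 4 treatments.

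Genes that adjoin polyamine synthesis were read from 4 lists by function. Between CB and isotype, the list of the methionine cycle and salvage had 2 of 8 tested genes called, both higher, while 4 of the 8 had a log2 fold change above 0 and 4 below, with a median log2 fold change of 0.23. The hypusine list had 1 of 4 called, higher (median 0.23), ornithine supply 1 of 4, lower (median -0.03), and polyamine transport 0 of 4 by edgeR (median -0.05). The median of ornithine supply includes Arg2, which had 30 reads in all and a log2 fold change of 5.46 (SE 3.43). Its other tested genes were Aldh18a1 at 0.33, Oat at -0.39 and Ass1 at -1.18. Of all genes, 4.29% were called and the median was 0.

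Mat2a makes S-adenosylmethionine, the substrate of Amd1. It stood at 236, 192 and 225 CPM in isotype and at 423, 283 and 381 CPM in CB, without overlap. Its log2 fold change was 0.74 (SE 0.13, adjusted p = 7.74e-04), and the call held without any single mouse.

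Mtap recycles methylthioadenosine, the by-product of Srm and Sms. It stood at 74.6, 66.6 and 62.7 CPM in isotype and at 102, 105 and 107 CPM in CB, again without overlap. The log2 fold change was 0.62 against isotype (SE 0.14, adjusted p = 0.00586) and 0.61 against anti-Lag3 (SE 0.14, adjusted p = 0.0266). Against anti-PD-L1 it was 0.46 (SE 0.14, adjusted p = 0.182), which is not called. DESeq2's test of Mtap against 0.2, CB with isotype, gave an adjusted p of 0.124. The other salvage genes Enoph1 (0.65, SE 0.27) and Mri1 (0.46, SE 0.22) were not called, though for both every CB mouse was above every isotype mouse. Apip (-0.24, SE 0.24) and Adi1 (-0.01, SE 0.33) had log2 fold changes of the other sign. So did Mat2b (-0.36, SE 0.18) and Ahcy (-0.35, SE 0.18) of the methionine cycle, neither called, and for Ahcy every CB mouse was below every isotype mouse.

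Dohh completes hypusine on eIF5A. It stood at 47.2, 44.8 and 49.4 CPM in isotype and at 83.4, 67.6 and 63.6 CPM in CB. The groups did not overlap, and the log2 fold change was 0.60 (SE 0.16, adjusted p = 0.0225). The call was lost without the first isotype mouse (adjusted p 0.0675), the second (0.0957) or the first CB mouse (0.174), and in DESeq2's test against 0.2 (0.373). Eif5a itself was at 734 ± 45.4 CPM in isotype and 724 ± 96.6 CPM in CB (SD, n = 3), and Dhps, which begins hypusine synthesis, had a log2 fold change of 0.21 (SE 0.24, adjusted p = 0.802 in edgeR).

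In ornithine supply the gene called was Ass1, argininosuccinate synthase, which acts in the making of arginine. It stood at 33.3, 52.3 and 49.8 CPM in isotype and at 19.4, 21.1 and 19.4 CPM in CB, and every CB mouse was below every isotype mouse. Its log2 fold change was -1.18 (SE 0.23, adjusted p = 0.00274), and the call held without any single mouse. Oat, which interconverts ornithine and proline precursors, was at 55.6 ± 3.00 and 42.4 ± 7.97 CPM (SD, n = 3) without a call (adjusted p = 0.273 in edgeR). Its CB values were all below those of isotype. Arg1, the liver-type arginase, had 0 reads in all 12 libraries, and Arg2 had 30 reads in all, 12 in 1 anti-Lag3 mouse and 18 in 1 CB mouse.

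In the transport list, Slc3a2, the heavy chain of amino acid transporters that is also linked to polyamine export, stood at 117 ± 17.6 CPM in isotype and 171 ± 34.0 CPM in CB (SD, n = 3), with a log2 fold change of 0.54 (SE 0.18, adjusted p = 0.0873 in edgeR). Atp13a3, a transporter for polyamine uptake, had a log2 fold change of -0.36 (SE 0.16, adjusted p = 0.286 in edgeR), and all its CB values were below those of isotype.

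**Figure D4:**
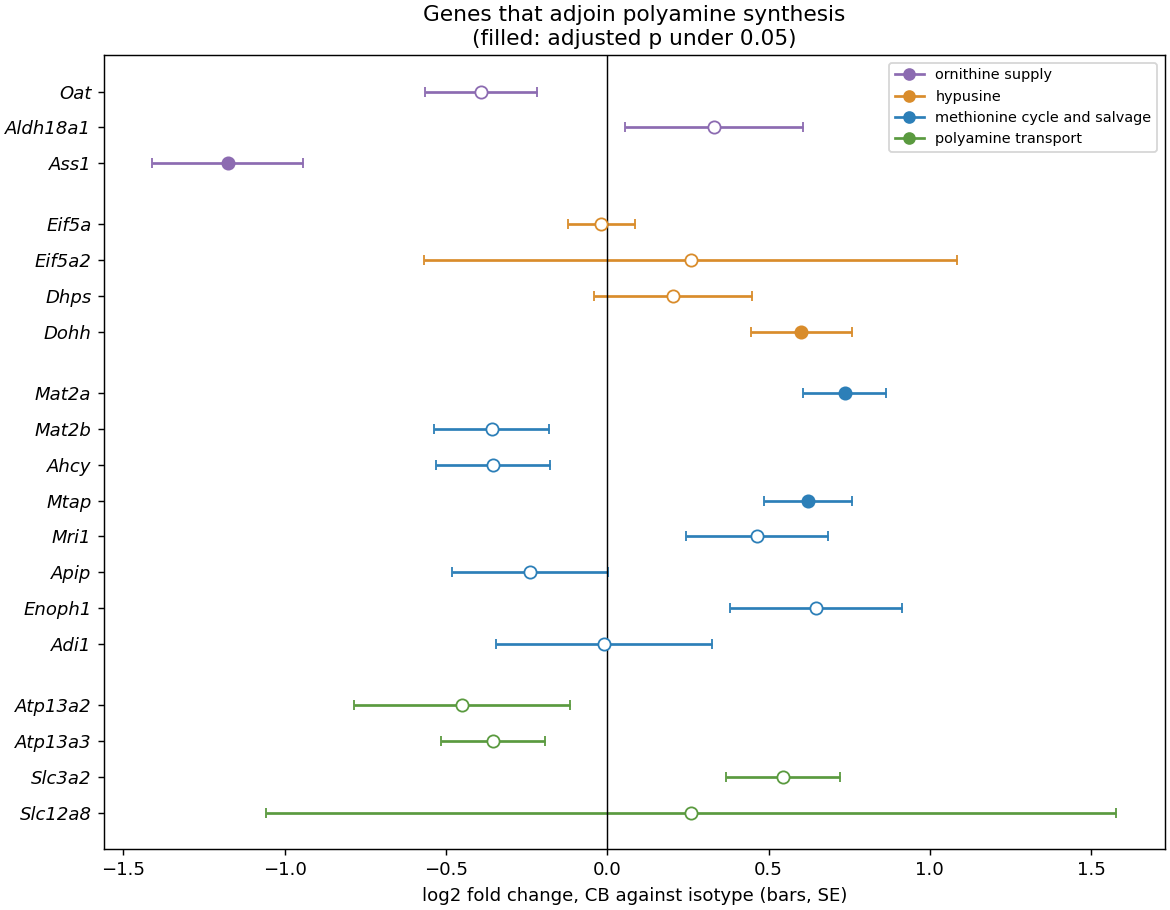
Log2 fold change between CB and isotype (horizontal axis, bars SE) of the tested genes of 4 lists that adjoin polyamine synthesis, other than Arg2 with its 30 reads, with filled points where the adjusted p is under 0.05. Mat2a, Mtap and Dohh are filled on the right, at 0.74, 0.62 and 0.60, and Ass1 is filled on the left, at -1.18.

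Close copies of members could take or lose reads, since only reads with a unique place were counted. Amd2, a close copy of Amd1, had 328 reads over the 12 libraries, between 0 and 87 in each, with 87, 9 and 2 in isotype and 26, 0 and 26 in CB. The pseudogene Oaz1-ps had 92 reads in all, Sms-ps 24, Amd-ps4 9 and Oaz2-ps 0. The antizyme Oaz3 had 26 reads, all in 1 anti-Lag3 mouse, and Sat2, Satl1 and Azin2 had 0. Whether reads were counted by strand is not stated. Paox is overlapped on the opposite strand by Echs1, with 6668 reads against 4145 for Paox, and Azin1 by Gm49077, with 14 reads. In both cases the overlap lies outside the last 1000 bases of the member, and no gene on the opposite strand overlaps the other 8. On the same strand, Odc1 is overlapped by the snoRNA Gm22748, with 498 reads against 8372 for Odc1, outside those last bases. Oaz1 and Azin1 are overlapped by microRNAs with 0 reads. Dohh is overlapped within its last 1000 bases by Gm48551 on the same strand, with 239 reads against 14254 for Dohh.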

How the data were processed

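Messenger RNA of sorted responder CD4+ T cells from 12 mice was made into QuantSeq 3′ libraries (5 ng of RNA, 18 PCR cycles, 4 lanes each). Per the labels and the study's methods, the authors trimmed reads with cutadapt 1.18, mapped them with STAR 2.6.1a to GRCm38 and deposited raw counts of uniquely mapped reads per gene from featureCounts 1.6.4. The annotation release and strand setting are not given in the sources used here. A deposited table of rlog values was not used. No column of samples was left out.

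Counts were tested with edgeR 4.0.16 (R 4.3.3, limma 3.58.1): genes reaching 30 reads in sum, TMM, 1 fit of 4 group means without covariates, quasi-likelihood tests (two-sided), Benjamini-Hochberg adjustment over 15138 genes and a threshold of 0.05. CPM use TMM library sizes, and likeness used log2 CPM with a prior count of 2. Spike-ins (0.719 to 1.29% of reads) stayed out. The alternatives were DESeq2 1.42.0 (against 0 and against a log2 fold change of 0.2), its size factors or total counts in edgeR, no filter, filterByExpr, a replicate block, only the groups compared and each mouse left out. For ratios, a pseudocount of 0.5 was tried. The fit was tested on simulated data with known changes. Within each group, no pair of libraries agreed within counting noise.

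Each mouse gave 1 library of 16449370 to 22151025 reads, and 3 mice per group limit the precision. Intervals cover 95%. Symbols and positions came from GENCODE vM21 (52073 of 56691 genes matched), promoters from RefSeq (GRCm38.p6). The members, pathway lists, markers, tests and the rule for named genes (all members, called genes of the lists, the 5 genes most like Srm and Odc1) were chosen with earlier results of these data known.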

Additional observations from a re-analysis of the deposited data

How the results depend on the processing

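Between CB and isotype, 3 members were called under every alternative except the DESeq2 test that asks for a change beyond 0.2 on the log2 scale, which called 1 (Srm), and some of the fits without 1 mouse, which called between 1 and 3. A log2 fold change threshold of 0.2 was also set by the study for its own DESeq2 calls, with further filters. Against anti-PD-L1, CB had 1 member called, but 0 in DESeq2's test against 0.2 and with only the groups compared, 2 without a filter on low counts, and between 0 and 1 without 1 mouse. In the interaction, no filter on low counts gave 1 call (Srm) in place of 0. Counts in the other 4 comparisons and the 4 ratios kept their size. The cause of these differences was not tested. Over all genes, the calls were 649 between CB and isotype (from 233 to 918 over the alternatives), 56 between CB and anti-PD-L1 (from 4 to 178), 105 between CB and anti-Lag3 (from 41 to 280) and 5 between anti-PD-L1 and isotype (from 0 to 56).

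Among the fold changes recomputed, the sign turned for the following. The log2 fold change of Azin1 between CB and isotype was -0.0088 with total counts in place of TMM, and between -0.060 and 0.10 without 1 mouse. Without 1 mouse, Smox ranged from -0.046 to 1.13 between CB and isotype, Amd1 from -0.021 to 0.45 between anti-PD-L1 and isotype, and Srm from -0.11 to 0.0033 between anti-Lag3 and isotype. The interaction then ranged from -0.070 to 0.15 for Odc1 and from -0.25 to 0.23 for Amd1.

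The labels number the mice 1 to 3 in each group but do not say that a number marks a shared batch. In its principal component analysis of these libraries, the study attributes PC2 mostly to the batches in which cells were sorted. Over all genes tested, deviations from the group means correlated between -0.04 and 0.05 over the 18 pairs of libraries with the same number (median 0.015). Over the 36 pairs with different numbers they correlated between -0.07 and 0.04 (median -0.0047), and 7 of 12 libraries correlated best with their own number. Among genes with a mean of at least 10 CPM, 11 of 18 pairs with the same number were over 0.1, against 4 of 36 pairs with different numbers. There 8 of 12 libraries correlated best with their own number. With the replicate number as a block, edgeR called 843 genes between CB and isotype in place of 649, 137 in place of 56 against anti-PD-L1 and 208 in place of 105 against anti-Lag3, and the members called were 3 between CB and isotype, 1 between CB and each single antibody, and 0 elsewhere.

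Smox, with 2 to 126 reads per library, is the member that depth limits most.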
